A study of Mus musculus with 4 samples.

Results

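The genes described here encode amino acid carriers of the Slc1, Slc3, Slc7, Slc36, Slc38 and Slc43 families, in mouse pluripotent cells and in the bone marrow cells that the reprogrammed lines came from. They were taken in by name alone: every probe whose accession belongs to a RefSeq gene with a symbol that starts with Slc1a, Slc3a, Slc7a, Slc36a, Slc38a or Slc43a. Of 45 such symbols in the RefSeq table, 41 genes had a probe (58 probes in all), out of 33378 genes or transcripts on the array. Slc36a1os, Slc36a3os, Slc38a6 and Slc43a1 had no matched probe and were not analysed here. The prefix also takes in Slc7a6os, a gene on the opposite strand next to Slc7a6 that is not a carrier.

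Cells cannot make the essential amino acids, and a dividing cell imports most of the others as well. Slc1 carriers couple uptake to the sodium gradient and move glutamate or small neutral amino acids. Most Slc7 light chains exchange one amino acid for another and reach the cell surface bound to an Slc3 heavy chain, while the cationic Slc7 members carry arginine and lysine alone. Slc38 carriers move glutamine and other neutral amino acids, Slc36 carriers use the proton gradient, and Slc43 members include carriers of large neutral amino acids. Mouse ES cells are known for their dependence on threonine.

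The study set induced pluripotent stem (iPS) cells beside ES cells and the starting marrow cells. The tested cells were 2 iPS lines, line 7 and line 13, made from bone marrow mononuclear cells (BMMNCs) of C57BL/6 mice that carry an Oct4-EGFP transgene, a fluorescent reporter of the pluripotency gene Pou5f1. E14 ES cells of strain 129 were the pluripotent standard, and BMMNCs of strain C57BL/6, with no reporter in the labels, were the somatic standard. iPS and ES cells grew on irradiated mouse embryonic fibroblasts with LIF, serum, L-glutamine and nonessential amino acids, and fibroblasts were depleted by preplating before extraction. The reprogramming factors, the passage and whether a line is 1 clone are not given in the sources used here. Between iPS lines and BMMNCs, which share a strain, the reporter, culture and feeder exposure differ together with cell identity. Between iPS lines and ES cells, which share culture and feeders, strain and reporter differ. Strain, culture and feeder exposure separate ES cells from BMMNCs. Within each comparison these parts cannot be told apart.

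Each of the 4 samples was hybridised to 1 single-colour array, all on 1 slide, so the number of arrays limits the precision. A level here is the log2 of the deposited processed signal minus the 75th percentile of that array, so 0 is a bright probe, and levels of different genes cannot be set against each other. Between 54.6% and 59.0% of probes were well above background on each array. All 8 pluripotency markers were above background in the iPS and ES cells and 3 of 8 in BMMNCs, where Pou5f1, Sox2, Zfp42, Esrrb and Tdgf1 were not. All 14 blood cell markers were above background in BMMNCs, against 5 or 6 of 14 in the pluripotent cultures, where Elane, Spi1, Ngp, S100a8, Hba-a1, Cd79a and Cd3g were among those that were not. All 12 fibroblast markers were above background in the iPS lines and ES cells despite that step, against 4 of 12 in BMMNCs. Their summed level, as a multiple of the 75th percentile, was 489.3 in line 7, 458.23 in line 13, 419.0 in ES cells and 8.28 in BMMNCs. The part of fibroblast RNA in the carrier differences was not tested. In bulk RNA, fewer cells of a type and less RNA per cell cannot be told apart.

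Of the 41 genes, 29 were well above background on at least 1 array and were tested, 28 carriers and Slc7a6os. The other 12 were above background on none: Slc1a2, Slc1a7, Slc3a1, Slc7a10, Slc7a12, Slc7a13, Slc7a14, Slc7a15, Slc36a1, Slc36a3, Slc38a8 and Slc38a11. Slc3a1, the heavy chain of kidney and gut, was thus not seen above background, while the heavy chain Slc3a2 was above it on every array. On all 4 arrays 16 genes were above background. A further 10 genes were, by their brightest probe, above background in both iPS lines and ES cells but not in BMMNCs: Slc1a1, Slc1a3, Slc1a4, Slc1a6, Slc7a1, Slc7a3, Slc7a9, Slc7a11, Slc38a3 and Slc38a4. The dimmer of the Slc1a4 probes was above background in BMMNCs too. Slc7a2 was above background in line 7 alone, Slc36a2 in ES cells and BMMNCs, and Slc43a2 in BMMNCs alone. A gene had to be above background somewhere to be tested, so counts among the 29 are descriptions. For a gene below background in a group, the fold is given as a bound: at least the distance to the higher of its own level and the lowest level of any probe above background on that array.

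**Figure D1:**
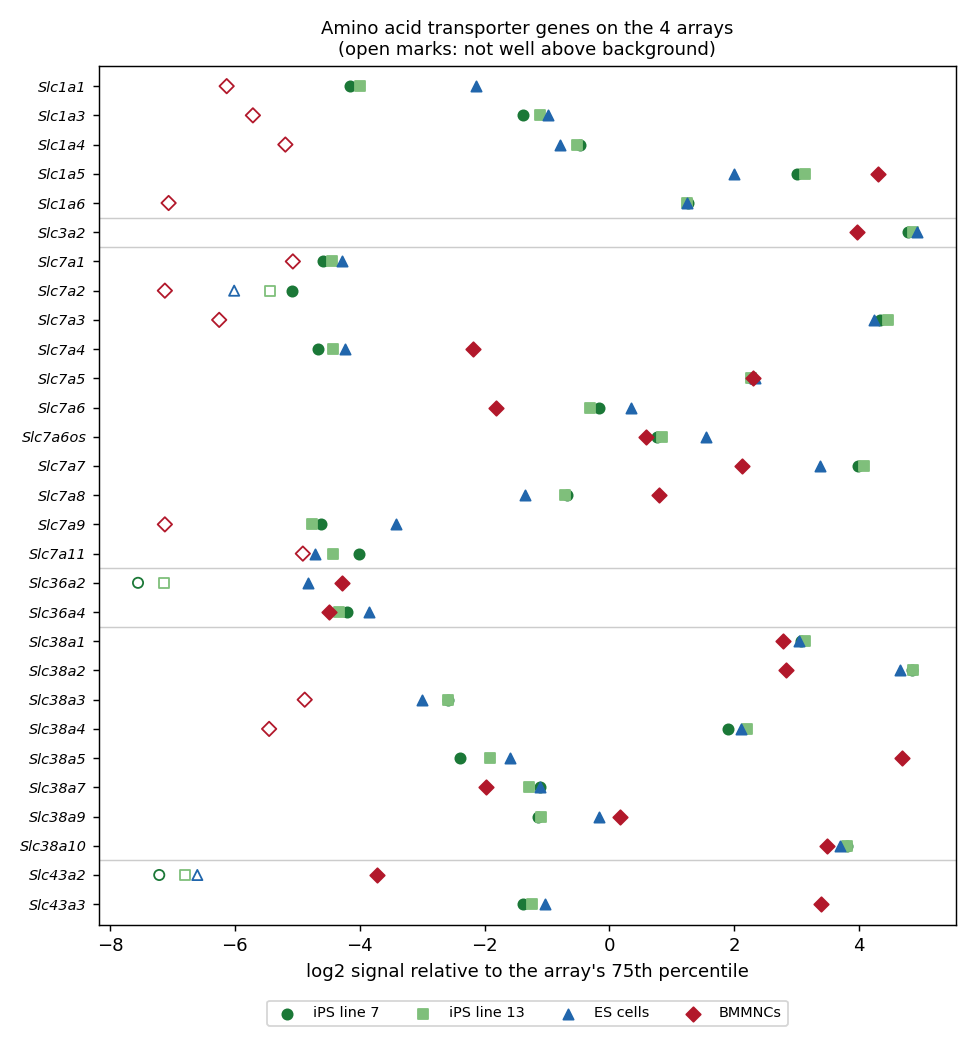
Level of each of the 29 detected genes (rows, grouped by family) as log2 signal relative to the array's 75th percentile (x axis), with 1 mark per array for iPS line 7, iPS line 13, ES cells and BMMNCs and open marks where the probe was not well above background. For Slc7a3, Slc1a6 and Slc38a4 the 3 pluripotent arrays lie together far to the right of BMMNCs, and for Slc38a5 and Slc43a3 far to the left.

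Between iPS lines and BMMNCs, 23 of the 29 tested genes passed, 15 higher and 8 lower in iPS lines. Over all 21216 genes tested, 75.8% passed, 38.0% higher and 37.8% lower, beside 79.3% of the 29. The test was limma over all arrays, with p adjusted by the Benjamini-Hochberg method at 0.05. Its spread was taken from the 2 lines (1 residual degree of freedom) and drawn towards a prior pooled over all genes (1.8 degrees of freedom). The fit assumes that the lone BMMNC and ES arrays vary as the lines do. The median difference of the 29 genes was 0.69 on the log2 scale, or 0.32 with genes below background set at their bound, against -0.01 and 0.0 for all genes tested. By family, rises and falls numbered 4 and 1 of 5 in Slc1, 6 and 2 of 11 in Slc7, 4 and 2 of 8 in Slc38, 0 and 1 of 2 in Slc36 and 0 and 2 of 2 in Slc43. The 15 rises include Slc7a1 and Slc7a2, whose differences had the opposite sign under another background correction (normexp). With normexp the log2 differences of Slc7a3, Slc38a4, Slc1a6, Slc1a4, Slc1a3 and Slc38a3 were 7.71, 5.08, 4.67, 2.30, 2.05 and 0.88. Each is smaller than the bound given below for that gene, so the bounds hold for the deposited processed signal of the brightest probe alone.

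**Figure D2:**
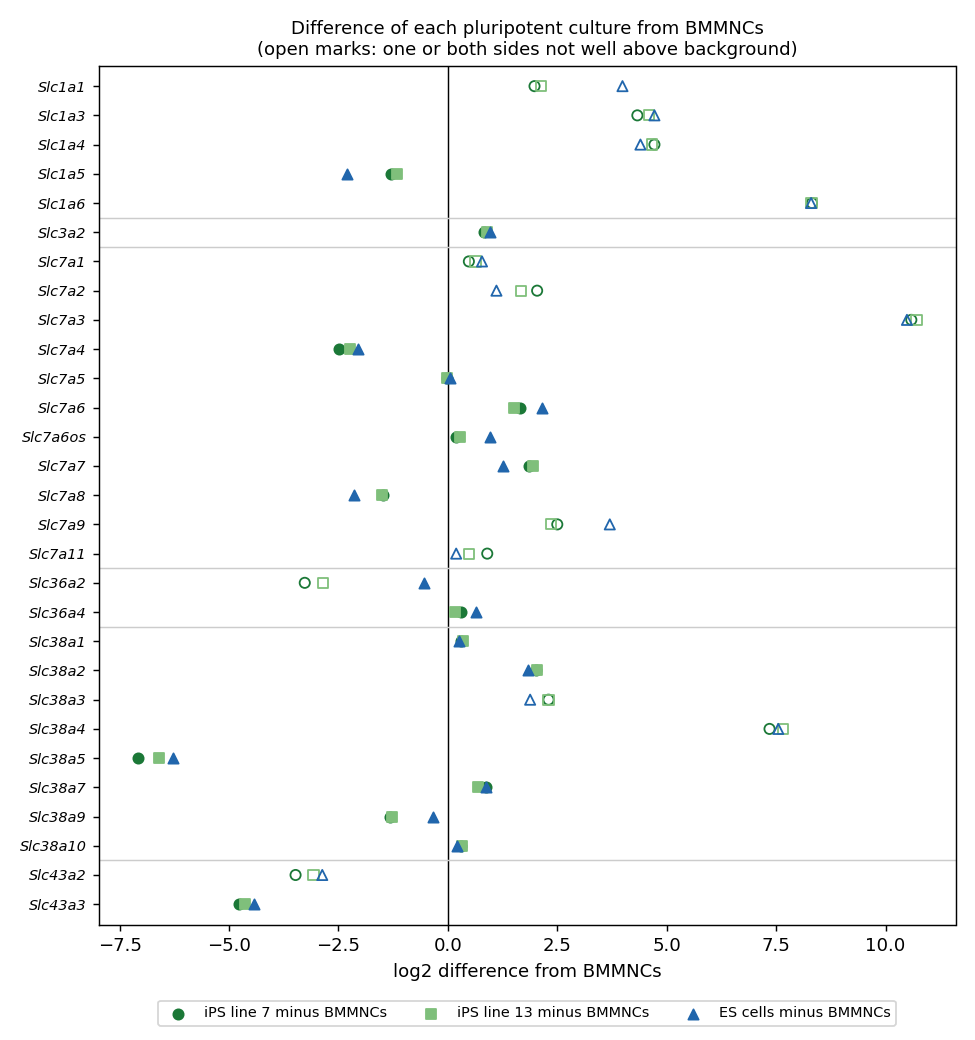
Log2 difference from BMMNCs (x axis) of iPS line 7, iPS line 13 and ES cells for each detected gene (rows), with 1 mark per array; open marks are differences in which a side was not well above background and the true size is known only as a bound. The differences of the iPS mean run from -6.83 for Slc38a5 to 10.65 for Slc7a3, and the ES mark lies on the same side of 0 as both iPS marks for every gene but Slc7a5.

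Among carriers of arginine and lysine, Slc7a3 had the largest difference. It read 4.34 in line 7, 4.46 in line 13 and 4.24 in ES cells, against -6.25 in BMMNCs, where it was not well above background. All 3 pluripotent arrays were thus bright and the BMMNC array dark, at least 645-fold higher in iPS lines (limma adjusted p = 0.000719) and at least 577-fold higher in ES cells than in BMMNCs. Slc7a3 is a cationic carrier best known from brain. Slc7a1, the widely expressed cationic carrier, stayed near background: it read -4.59, -4.44 and -4.29 in line 7, line 13 and ES cells, against -5.07 in BMMNCs. That made it at least 1.34-fold higher in iPS lines than in BMMNCs (limma adjusted p = 0.0305), but -0.29 on the log2 scale, lower, with normexp background correction (adjusted p = 0.0218). Slc7a2, the cationic carrier of liver and activated macrophages, read -5.08 in line 7, the lone array with it above background, and -5.44, -6.01 and -7.12 in line 13, ES cells and BMMNCs. Its rise against BMMNCs passed (limma adjusted p = 0.00767) but carries no fold beyond its bound, and under normexp it read -0.19 (adjusted p = 0.108). Slc7a4, counted with the cationic members by sequence, went the other way. It read -4.67 in line 7, -4.43 in line 13 and -4.24 in ES cells, against -2.19 in BMMNCs, and was 5.13-fold lower in iPS lines (log2 difference -2.36 ± 0.16 SE, limma adjusted p = 0.00277).

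The glutamate carriers of the Slc1 family were low or below background in BMMNCs. Slc1a6, a glutamate carrier best known from cerebellar Purkinje cells, read 1.26 in line 7, 1.25 in line 13 and 1.24 in ES cells, against -7.06 in BMMNCs. The 3 pluripotent arrays lay within 0.02 of each other, and the gene was at least 73.0-fold higher in iPS lines than in BMMNCs (limma adjusted p = 0.000719). Slc1a3, the glial glutamate carrier, read -1.38, -1.11 and -0.99 in line 7, line 13 and ES cells, against -5.71 in BMMNCs. It was at least 12.9-fold higher in iPS lines (limma adjusted p = 0.00121) and at least 15.4-fold higher in ES cells than in BMMNCs. Slc1a1, a neuronal and kidney carrier of glutamate that also imports cysteine, read -4.15 in line 7 and -4.00 in line 13, with -2.14 in ES cells and -6.13 in BMMNCs. The iPS lines lay between the other samples, at least 1.81-fold above BMMNCs (limma adjusted p = 0.00228). Under normexp that difference was 0.22 on the log2 scale (adjusted p = 0.106). Its second probe was above background in ES cells alone.

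The 2 neutral Slc1 carriers went opposite ways. Slc1a4, a carrier of alanine, serine and cysteine, read -0.47 in line 7, -0.52 in line 13 and -0.79 in ES cells, against -5.19 in BMMNCs, and was at least 21.7-fold higher in iPS lines by that probe (limma adjusted p = 0.00076). Its second probe, above background on all 4 arrays, gave a measured difference of 3.37 on the log2 scale, smaller than that bound, which is 4.44 on the same scale. Slc1a5, the main glutamine importer of many dividing cells, read 3.0 in line 7, 3.14 in line 13 and 1.99 in ES cells, against 4.30 in BMMNCs. Every array held it well above background, BMMNCs the most and ES cells the least, and it was 2.35-fold lower in iPS lines than in BMMNCs (log2 difference -1.23 ± 0.12 SE, limma adjusted p = 0.00535). Pooling ES and iPS arrays put the difference from BMMNCs at -1.59 (limma adjusted p = 0.0779).

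Promoter windows are shown for 3 of the 4 Slc1 genes that were higher in iPS lines than in BMMNCs. Slc1a1 is among them as the carrier that also parted iPS from ES cells. They come from RefSeq on GRCm38.p6 and run from 250 bases before to 50 bases after the annotated start, 5′ to 3′ on the gene's strand. Slc1a1 lies at chr19:28834885-28835184 on the plus strand, Slc1a4 at chr11:20332664-20332963 on the minus strand and Slc1a6 at chr10:78780246-78780545 on the plus strand. Capitals mark a match of the C/EBP-ATF composite element (TGATGNAAN) in Slc1a4 and of the E-box (CACGTG) in Slc1a6; Slc1a1 held no match of the 4 motifs searched.
Slc1a1: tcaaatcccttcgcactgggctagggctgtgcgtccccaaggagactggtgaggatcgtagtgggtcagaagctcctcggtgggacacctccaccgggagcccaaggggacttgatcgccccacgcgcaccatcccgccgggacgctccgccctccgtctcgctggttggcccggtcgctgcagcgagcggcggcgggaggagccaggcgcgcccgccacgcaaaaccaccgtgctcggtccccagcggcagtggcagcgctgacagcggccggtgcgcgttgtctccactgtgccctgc
Slc1a4: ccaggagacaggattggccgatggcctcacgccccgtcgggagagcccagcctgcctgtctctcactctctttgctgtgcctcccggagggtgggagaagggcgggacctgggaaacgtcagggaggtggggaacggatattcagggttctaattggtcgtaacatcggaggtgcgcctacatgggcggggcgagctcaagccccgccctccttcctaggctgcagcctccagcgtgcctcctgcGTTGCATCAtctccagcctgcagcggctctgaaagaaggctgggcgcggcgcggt
Slc1a6: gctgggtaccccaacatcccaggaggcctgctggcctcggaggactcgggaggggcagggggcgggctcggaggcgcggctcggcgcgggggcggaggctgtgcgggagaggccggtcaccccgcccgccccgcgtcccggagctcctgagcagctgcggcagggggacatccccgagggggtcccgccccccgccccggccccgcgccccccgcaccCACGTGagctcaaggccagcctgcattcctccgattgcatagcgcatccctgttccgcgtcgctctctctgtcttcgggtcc
GC content was 70.3% in the Slc1a1 window, 65.0% in Slc1a4 and 75.7% in Slc1a6. The window of Slc1a3, also higher in iPS lines but not shown, had 45.3% GC and held no match of the motifs searched.

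Among the heterodimeric exchangers the heavy chain Slc3a2 was higher in iPS lines than in BMMNCs, Slc7a5 did not pass and Slc7a8 was lower. Slc3a2, the CD98 heavy chain, read 4.79 in line 7, 4.86 in line 13 and 4.92 in ES cells, against 3.96 in BMMNCs, and was 1.82-fold higher in iPS lines (log2 difference 0.86 ± 0.098 SE, limma adjusted p = 0.00773). Slc7a5, its best known partner, which imports leucine and other large neutral amino acids in exchange for glutamine, read 2.27 in both lines and 2.34 in ES cells, against 2.30 in BMMNCs. The arrays lay within 0.07 of each other, and the difference between iPS lines and BMMNCs was -0.02 ± 0.092 SE (limma adjusted p = 0.836). Slc7a8, a second carrier of large neutral amino acids, read -0.68, -0.71 and -1.35 in line 7, line 13 and ES cells, against 0.80 in BMMNCs. It was 2.82-fold lower in iPS lines (log2 difference -1.5 ± 0.093 SE, limma adjusted p = 0.00249).

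Both y+L type exchangers, which let arginine and lysine out of the cell in exchange for neutral amino acids and sodium, were higher in iPS lines than in BMMNCs. Slc7a7 read 3.98 in line 7, 4.07 in line 13 and 3.37 in ES cells, against 2.12 in BMMNCs, and was 3.76-fold higher in iPS lines (log2 difference 1.91 ± 0.10 SE, limma adjusted p = 0.00194). Slc7a6 read -0.16 in line 7, -0.31 in line 13 and 0.35 in ES cells, against -1.81 in BMMNCs, and was 2.97-fold higher in iPS lines (log2 difference 1.57 ± 0.12 SE, limma adjusted p = 0.00353). Its second probe gave a log2 difference of 1.25. Slc7a6os, the opposite-strand neighbour with no other protein-coding gene between, read 0.77, 0.85 and 1.54 in line 7, line 13 and ES cells, against 0.58 in BMMNCs (limma adjusted p = 0.133). The iPS lines thus lay nearer BMMNCs than ES cells for Slc7a6os and nearer ES cells than BMMNCs for Slc7a6.

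Slc7a9 and Slc7a11 lay near or below background. Slc7a9, the light chain that pairs with Slc3a1 in kidney, read -4.62 in line 7, -4.77 in line 13 and -3.42 in ES cells, against -7.12 in BMMNCs. It was at least 1.18-fold higher in iPS lines than in BMMNCs (limma adjusted p = 0.00174), and 0.05 on the log2 scale with normexp (adjusted p = 0.648). Slc7a11, the cystine importer that supplies glutathione synthesis, read -4.01 in line 7, -4.42 in line 13 and -4.72 in ES cells, against -4.91 in BMMNCs (limma adjusted p = 0.0792). Of its other probes, one was above background on no array and one in line 7 alone. All 4 arrays were close to background for this carrier.

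The Slc7a7 and Slc7a11 windows are shown because each holds a pair of matches of the C/EBP-ATF composite element, the letters through which Atf4 is known to act on genes of the amino acid response. The first Slc7a7 window lies at chr14:54417895-54418194 and the Slc7a11 window at chr3:50443564-50443863, both on the minus strand of GRCm38.p6 (RefSeq), with the matches in capitals.
Slc7a7: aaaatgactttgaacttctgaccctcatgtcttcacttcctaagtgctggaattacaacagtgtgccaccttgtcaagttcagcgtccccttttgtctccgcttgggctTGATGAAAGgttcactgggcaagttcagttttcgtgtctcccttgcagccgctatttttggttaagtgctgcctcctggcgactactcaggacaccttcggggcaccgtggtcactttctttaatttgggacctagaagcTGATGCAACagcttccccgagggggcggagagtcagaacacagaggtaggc
Slc7a11: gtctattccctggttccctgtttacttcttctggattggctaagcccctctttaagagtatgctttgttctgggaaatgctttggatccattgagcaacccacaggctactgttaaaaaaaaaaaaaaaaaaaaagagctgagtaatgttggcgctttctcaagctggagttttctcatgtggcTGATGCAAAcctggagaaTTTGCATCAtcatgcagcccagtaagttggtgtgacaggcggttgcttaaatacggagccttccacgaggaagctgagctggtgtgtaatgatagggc
Counted from the annotated start, the Slc7a11 matches cover bases -66 to -58 and -48 to -40 and lie on opposite strands. The Slc7a7 matches cover bases -141 to -133 and -1 to 7 and lie on 1 strand.

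In the Slc38 family 4 genes were higher and 2 lower in iPS lines than in BMMNCs. Slc38a4, a system A carrier imprinted in mouse and known from placenta and liver, read 1.90 in line 7, 2.20 in line 13 and 2.10 in ES cells, against -5.45 in BMMNCs, where it was not well above background. It was at least 126-fold higher in iPS lines (limma adjusted p = 0.000808) and at least 131-fold higher in ES cells than in BMMNCs. Slc38a2, the system A carrier that rises in many cells under amino acid shortage, read 4.85 in line 7, 4.86 in line 13 and 4.65 in ES cells, against 2.83 in BMMNCs. It was 4.08-fold higher in iPS lines (log2 difference 2.03 ± 0.092 SE, limma adjusted p = 0.00153), with a log2 difference of 1.49 by its second probe. Slc38a3, a glutamine carrier of liver, kidney and brain, read -2.58 in both lines and -3.00 in ES cells, against -4.88 in BMMNCs, at least 4.95-fold higher in iPS lines (limma adjusted p = 0.00128).

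Slc38a5 was the carrier with the deepest fall. It moves glutamine, serine and glycine, and read -2.40 in line 7, -1.91 in line 13 and -1.59 in ES cells, against 4.68 in BMMNCs. All 4 arrays were above background, so the 114-fold lower level in iPS lines is measured on both sides (log2 difference -6.83 ± 0.27 SE, limma adjusted p = 0.00128), as is the 76.8-fold lower level in ES cells than in BMMNCs. Slc38a1, a system A carrier of glutamine, read 3.07, 3.13 and 3.04 in line 7, line 13 and ES cells, against 2.78 in BMMNCs (limma adjusted p = 0.065). Its probes disagreed: the dimmer one gave -0.33 where the brighter gave 0.32, iPS lines minus BMMNCs. Slc38a10, of less settled function, read 3.80 and 3.81 in line 7 and line 13 and 3.70 in ES cells, against 3.49 in BMMNCs (limma adjusted p = 0.0583).

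The windows of Slc38a4 and Slc38a5 are shown as those of the largest rise and the largest fall within one family. The first of the Slc38a4 windows lies at chr15:97055907-97056206 on the minus strand and the Slc38a5 window at chrX:8271131-8271430 on the plus strand (GRCm38.p6, RefSeq). Capitals mark the E-box of Slc38a5, and Slc38a4 held no match.
Slc38a4: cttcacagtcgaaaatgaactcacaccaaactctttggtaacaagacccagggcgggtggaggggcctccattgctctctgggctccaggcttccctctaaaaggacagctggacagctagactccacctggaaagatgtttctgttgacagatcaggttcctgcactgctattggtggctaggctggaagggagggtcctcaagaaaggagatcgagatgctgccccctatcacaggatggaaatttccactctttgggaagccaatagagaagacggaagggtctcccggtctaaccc
Slc38a5: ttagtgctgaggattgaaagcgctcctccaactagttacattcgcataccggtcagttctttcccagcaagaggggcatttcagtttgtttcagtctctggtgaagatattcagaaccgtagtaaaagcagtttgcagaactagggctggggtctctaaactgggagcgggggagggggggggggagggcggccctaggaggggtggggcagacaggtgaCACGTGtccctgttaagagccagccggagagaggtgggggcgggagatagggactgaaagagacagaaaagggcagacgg
The Slc38a4 window had 53.0% GC and an observed over expected CpG ratio of 0.24, and the Slc38a5 window 56.0% and 0.48. Slc38a1, Slc38a2 and Slc38a4 lie next to each other on chromosome 15, with no other protein-coding gene between them in the RefSeq order. By their brightest probes, the differences between iPS lines and BMMNCs ran from 1.25-fold for Slc38a1 over 4.08-fold for Slc38a2 to at least 126-fold for Slc38a4.

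Carriers of the lysosomal membrane were measured too. Slc38a9, the carrier that senses lysosomal arginine for the kinase complex mTORC1, read -1.15 in line 7, -1.10 in line 13 and -0.16 in ES cells, against 0.17 in BMMNCs. It was 2.46-fold lower in iPS lines than in BMMNCs (log2 difference -1.3 ± 0.095 SE, limma adjusted p = 0.0033). Its second probe put the difference at -3.62 with all 4 arrays above background, so its size depends on the probe. Pooling ES and iPS arrays put the brighter probe's difference at -0.98 (limma adjusted p = 0.169). Slc38a7, a lysosomal glutamine exporter, read -1.11, -1.29 and -1.11 in line 7, line 13 and ES cells, against -1.98 in BMMNCs, 1.72-fold higher in iPS lines (log2 difference 0.78 ± 0.13 SE, limma adjusted p = 0.0188). That call was lost when probes below background were kept in the test (adjusted p = 0.0601).

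The proton-coupled and Slc43 carriers were higher in BMMNCs or not past the threshold. Slc43a3, known as a carrier of purine nucleobases and not of amino acids, read -1.39 in line 7, -1.24 in line 13 and -1.03 in ES cells, against 3.39 in BMMNCs. It was 26.1-fold lower in iPS lines (log2 difference -4.71 ± 0.12 SE, limma adjusted p = 0.000843). Slc43a2, a carrier of large neutral amino acids by facilitated diffusion, was above background in BMMNCs alone, at -3.73, and at least 2.82-fold lower in iPS lines (limma adjusted p = 0.00314). Slc36a2, a proton-coupled carrier of glycine and proline, read -4.83 in ES cells and -4.28 in BMMNCs and was not above background in either iPS line, at least 1.94-fold lower than in BMMNCs (limma adjusted p = 0.00365). Pooling ES and iPS arrays put its difference from BMMNCs at -2.23 (limma adjusted p = 0.209). Slc36a4 read -4.20, -4.33 and -3.85 in line 7, line 13 and ES cells, against -4.49 in BMMNCs (limma adjusted p = 0.168).

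ES cells and BMMNCs, each a single array, were set beside each other by size alone, with no test. At 4-fold or more, with genes below background at their bound, 12 of the 29 genes were apart, where 25.4% of all genes were. ES cells were higher for 7 of them, Slc1a1, Slc1a3, Slc1a4, Slc1a6, Slc7a3, Slc7a6 and Slc38a4, and lower for 5, Slc1a5, Slc7a4, Slc7a8, Slc38a5 and Slc43a3. For all genes these shares were 12.8% and 12.6%. These differences share the BMMNC array with those of the iPS lines, so their likeness is not a second observation. Slc1a6 was at least 72.4-fold higher and Slc43a3 21.4-fold lower in ES cells than in BMMNCs.

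Between iPS lines and ES cells 1 of the 29 genes passed the test. Slc1a1, at -4.15 and -4.00 in iPS lines and -2.14 in ES cells, was 3.82-fold lower in iPS lines (log2 difference -1.93 ± 0.12 SE, limma adjusted p = 0.0437). Its second probe gave -2.38, with the iPS lines not above background. Of all genes, 4.71% passed in this comparison, and 1 of 29 is 3.45%. The call was lost with the authors' deposited value table (adjusted p = 0.0549) and when probes below background were kept in the test (adjusted p = 0.156). In both settings limma called 0 of all genes against ES cells, so no gene could keep a call. At an unadjusted p under 0.05 stood 12 of the 29 genes (41.4%) and 6635 of all genes (31.3%). Of the fibroblast markers limma called 0 of 12 against ES cells (1 at an unadjusted p under 0.05), and their median difference was 0.21. Of the 8 pluripotency markers it called 1 higher in iPS lines, Dnmt3l at 1.07 ± 0.092 SE (limma adjusted p = 0.0465). It called 1 lower, Zfp42 on chromosome 8, at -3.7 ± 0.16 SE (limma adjusted p = 0.0427).

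A further 6 carriers, and Slc7a6os, had adjusted p between 0.0502 and 0.077 against ES cells. Slc36a2 was at least 1.32-fold lower in iPS lines than in ES cells (limma adjusted p = 0.0502), and Slc7a9 gave -1.27 ± 0.12 SE (limma adjusted p = 0.0502). Slc38a9 gave -0.96 ± 0.095 SE (limma adjusted p = 0.0532), with -1.2 by its second probe. In the other direction Slc1a5, the glutamine importer, gave 1.08 ± 0.12 SE (limma adjusted p = 0.0573). Slc7a7 and Slc7a8 gave 0.66 ± 0.10 SE and 0.65 ± 0.093 SE, with limma adjusted p of 0.077 and 0.0722. In each of these 6 carriers both lines lay on the same side of ES cells.

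The carriers with the largest differences from BMMNCs did not pass against ES cells. The difference of iPS lines from ES cells was 0.16 for Slc7a3 (SE 0.11, limma adjusted p = 0.4), 0.01 for Slc1a6 (SE 0.092, adjusted p = 0.936) and -0.05 for Slc38a4 (SE 0.18, adjusted p = 0.848). For Slc38a5 it was -0.57 (SE 0.27, adjusted p = 0.278) and for Slc43a3 -0.29 (SE 0.12, adjusted p = 0.241). A p that misses the threshold does not show that levels were equal. The median absolute difference of the 29 genes was 0.4, against 0.25 for all genes tested.

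**Figure D3:**
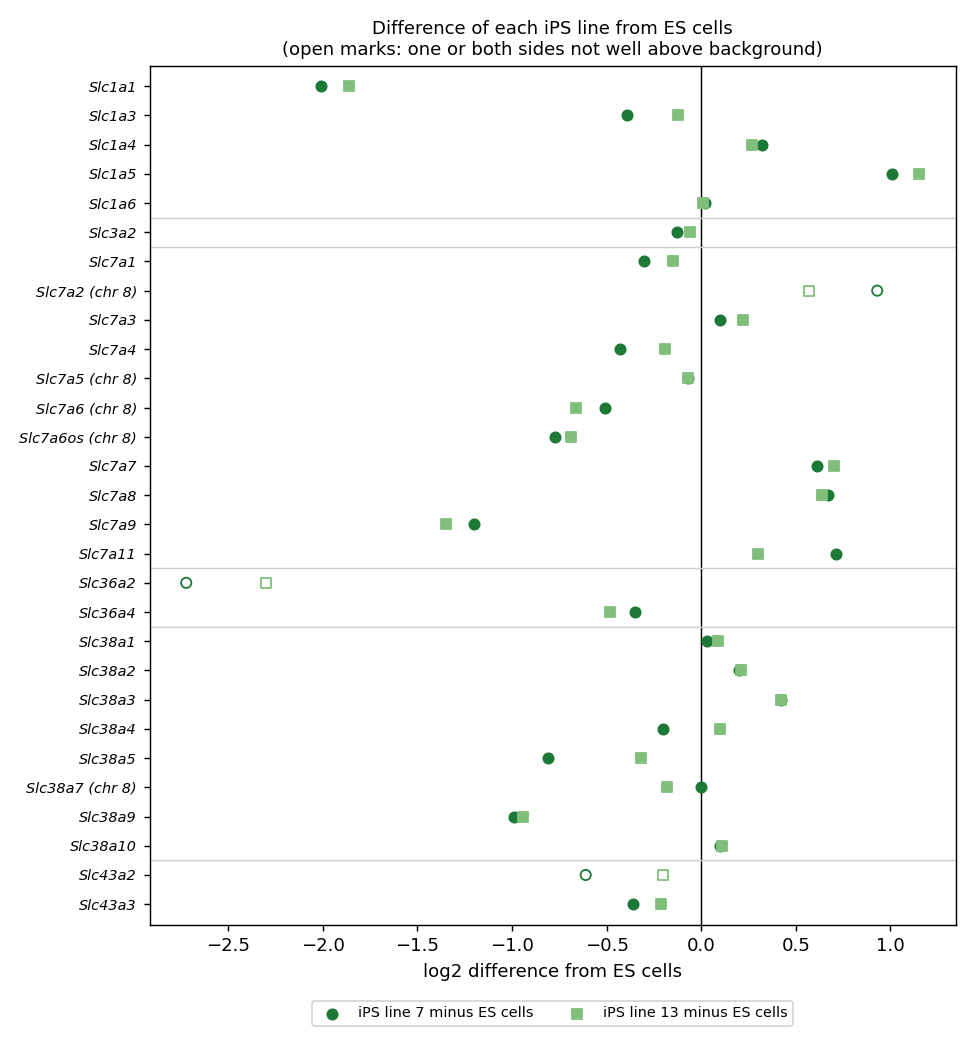
Log2 difference of iPS line 7 and iPS line 13 from ES cells (x axis) for each detected gene (rows), 1 mark per line, with genes of chromosome 8 named as such and open marks where a side was not well above background. Slc1a1 lies at -2.01 for line 7 and -1.86 for line 13, and Slc1a5 at 1.01 and 1.15, with most other carriers within 1 of 0.

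Genes of chromosome 8, where 5 of the tested members lie, read below ES cells as a group in either iPS line. The median difference of the 600 chromosome 8 genes above background on all compared arrays was -0.40 (-0.41 in line 7 and -0.39 in line 13), with medians of the other chromosomes between -0.06 and 0.01. Slc7a6 was at -0.59 (SE 0.12, limma adjusted p = 0.103) and Slc7a6os at -0.73 (SE 0.10, adjusted p = 0.0697). Slc38a7 was at -0.09 and Slc7a5 at -0.07. Slc7a2 was above background in line 7 alone and has no measured difference from ES cells. The 4 measured members lay on both sides of the chromosome's median, and its part in their values was not tested.

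Line 7 and line 13 differed by at most 0.49 in either direction, from -0.49 for Slc38a5 to 0.41 for Slc7a11, line 7 minus line 13. Of the 29 genes 0 reached 2-fold, where 1.34% of all genes did, 0.462% higher and 0.881% lower in line 7. Their median absolute difference was 0.14, against 0.11 for all genes tested. This comparison of 2 single arrays has no test.

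Genes that carry, use or sense the same amino acids were read from 6 further lists. Their counts against BMMNCs stand beside 38.0% of all genes higher and 37.8% lower, and those against ES cells beside 1.93% and 2.78%. The rises and falls named were, with exceptions said, the largest among genes above background on all compared arrays. Genes below background in a group could differ more. Named after their values were seen, Cth was at least 256-fold higher in iPS lines than in BMMNCs and Slc6a20a at least 35.2-fold lower. Of 21 genes of the amino acid response, the programme that Atf4 drives when amino acids run short, 17 were higher and 2 lower in iPS lines than in BMMNCs, with a median of 0.97. Vldlr, a lipoprotein receptor, read 1.37 and 1.41 in line 7 and line 13, against -4.03 in BMMNCs (5.42 ± 0.094 SE, limma adjusted p = 0.000719). Gpt2, a mitochondrial alanine aminotransferase, gave 4.32 ± 0.11 SE (limma adjusted p = 0.000811), and Atf4 itself 0.48 ± 0.10 SE (limma adjusted p = 0.0295). Cebpb, a transcription factor prominent in myeloid cells, was lower, at -2.15 ± 0.095 SE (limma adjusted p = 0.00147), as was Pck2 at -0.67 (SE 0.099, adjusted p = 0.0138). After pooling ES and iPS arrays 11 were higher and 2 lower, where 61.2% of all genes passed in either direction. When probes below background were kept in the test 12 were higher and 1 lower, where 41.6% of all genes passed.

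In the same list 2 genes passed against ES cells. Of its 21 genes, 11 had an unadjusted p under 0.05, beside 31.3% of all genes. Atf4 read 2.91 in line 7 and 2.99 in line 13, against 1.66 in ES cells, 1.3 ± 0.10 SE higher in iPS lines (limma adjusted p = 0.0457). Trib3, a pseudokinase induced by Atf4, read 0.66 and 0.79 in line 7 and line 13, against -0.69 in ES cells, 1.41 ± 0.11 SE higher (limma adjusted p = 0.0463). Chac1, a glutathione-degrading enzyme, gave 1.43 ± 0.17 SE (limma adjusted p = 0.0617), and Eif2ak4, the kinase that senses uncharged tRNA, 0.43 ± 0.092 SE (adjusted p = 0.11). Aars, alanyl-tRNA synthetase, gave -0.46 ± 0.096 SE (limma adjusted p = 0.105) and Eif4ebp1, a brake on translation, -0.31 ± 0.093 SE (adjusted p = 0.158). Aars and Eif4ebp1 lie on chromosome 8, where the median difference from ES cells was -0.4, and its part in their values was not tested. The median of the list was 0.21, against -0.06 for all genes. Neither call was made with the authors' deposited table or with probes below background kept in the test, where limma called 0 of all genes. Nor was either made with the mean of a gene's probes, where 3.02% of all genes passed. With normexp 9 genes of the list were higher and 1 lower, where 26.6% of all genes passed in either direction.

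Of 29 tested genes of amino acid sensing by mTORC1, 16 were higher and 7 lower in iPS lines than in BMMNCs, with a median of 0.54. These counts were 10 and 3 with probes below background kept in the test, where 41.6% of all genes passed in either direction. They were 12 and 7 with median scaling, where 76.3% of all genes passed. Rragd, a GTPase that ties mTORC1 to the lysosome, gave 2.4 ± 0.12 SE (limma adjusted p = 0.00166) and Akt1s1, a brake on the complex, 1.93 ± 0.10 SE (adjusted p = 0.00197). Mtor gave 0.73 ± 0.12 SE (limma adjusted p = 0.0157) and Rptor 1.64 ± 0.15 SE (adjusted p = 0.00495). Sesn1, a relative of the leucine sensor Sesn2, was lower at -2.33 ± 0.099 SE (limma adjusted p = 0.00139), and Mlst8 at -1.52 ± 0.093 SE (adjusted p = 0.00245). Against ES cells Rragd was 1.53 ± 0.12 SE higher (limma adjusted p = 0.0457) and Rragb, a related GTPase, was lower at -1.23 ± 0.11 SE (adjusted p = 0.0489). Depdc5, named after its values were seen, is a subunit of an inhibitor of the pathway; it was above background in ES cells alone and at least 1.9-fold lower in iPS lines (limma adjusted p = 0.0457). The GATOR2 subunit Mios gave 0.61 ± 0.094 SE against ES cells (limma adjusted p = 0.0787) and the GATOR2 subunit Wdr59 -0.68 ± 0.14 SE (adjusted p = 0.103). Wdr59 lies on chromosome 8, where the median difference from ES cells was -0.4. Of the 1 rise and 2 falls against ES cells, limma called 1 and 0 with quantile scaling. It called 0 and 0 with the authors' deposited table and with probes below background kept in the test. With that table and with those probes kept, limma called 0 of all genes. Rises and falls numbered 4 and 4 with normexp, where 26.6% of all genes passed in either direction. They numbered 5 and 6 with an intensity trend (36.2% of all genes), and 5 and 3 among 25 genes above background on all arrays (38.9%). At an unadjusted p under 0.05 stood 8 of the 29 genes in the test as first given, beside 31.3% of all genes.

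Of 18 enzymes of glutamine, glutamate, branched-chain amino acids and arginine, 11 were higher and 5 lower in iPS lines than in BMMNCs, with a median of 0.72. With probes below background kept in the test 9 were higher and 2 lower, where 41.6% of all genes passed in either direction. Bcat1, the cytosolic branched-chain aminotransferase, read 3.56 and 3.50 in line 7 and line 13, against -1.77 in BMMNCs (5.29 ± 0.097 SE, limma adjusted p = 0.000719). Gls2, a glutaminase, gave 3.12 ± 0.095 SE (limma adjusted p = 0.000965), while glutamine synthetase, Glul, gave -0.97 ± 0.24 SE (adjusted p = 0.0436) and Bckdk, the kinase of branched-chain ketoacid breakdown, -0.92 ± 0.098 SE (adjusted p = 0.0068). Against ES cells 1 of the 18 passed, lower in iPS lines. That gene, named after its values were seen, is Arg2, mitochondrial arginase, at -5.20 in line 7 and -5.08, not above background, in line 13, against -2.49 in ES cells (limma adjusted p = 0.0427). This call was lost with the authors' deposited table and with probes below background kept in the test, where limma called 0 of all genes. Rises and falls numbered 1 and 5 with normexp, where 26.6% of all genes passed in either direction. They numbered 1 and 9 with an intensity trend (36.2% of all genes), and 0 and 6 among 16 enzymes above background on all arrays (38.9%). In the test as first given 7 of the 18 had an unadjusted p under 0.05, beside 31.3% of all genes. Bckdhb, of the branched-chain ketoacid dehydrogenase, gave -0.99 ± 0.10 SE (limma adjusted p = 0.0556) and Got1, an aspartate aminotransferase, -0.71 ± 0.11 SE (adjusted p = 0.0771).

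Cystine and glutathione genes numbered 12, of which 6 were higher and 3 lower in iPS lines than in BMMNCs, with a median of 0.57. With probes below background kept in the test 6 were higher and 1 lower, where 41.6% of all genes passed in either direction. Txnrd1, thioredoxin reductase, gave 2.42 ± 0.093 SE (limma adjusted p = 0.00124) and Hmox1, haem oxygenase, 1.89 ± 0.092 SE (adjusted p = 0.00168). Gclc, which starts glutathione synthesis, gave -0.31 ± 0.11 SE (limma adjusted p = 0.091). Gsr, glutathione reductase, was lower at -1.94 ± 0.094 SE (limma adjusted p = 0.00168), as was Nfe2l2, the regulator of the antioxidant response, at -0.65 ± 0.096 SE (adjusted p = 0.0137). Against ES cells limma called 0 of the 12, with 3 at an unadjusted p under 0.05, beside 31.3% of all genes.

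Carriers of other families were read as well. Of 10 mitochondrial and lysosomal amino acid carriers 2 were higher and 6 lower in iPS lines than in BMMNCs, with a median of -1.11. Slc25a13, an aspartate-glutamate carrier of the mitochondrion, gave 2.59 ± 0.094 SE (limma adjusted p = 0.00116), while its paralogue Slc25a12 gave -1.13 ± 0.092 SE (adjusted p = 0.00399). Slc15a3, a lysosomal histidine and peptide carrier of immune cells, gave -3.17 ± 0.15 SE (limma adjusted p = 0.00163) and Slc25a29, a mitochondrial carrier of basic amino acids, -2.64 ± 0.10 SE (adjusted p = 0.00127). Slc25a22, a mitochondrial glutamate carrier, gave 0.43 ± 0.11 SE (limma adjusted p = 0.0488). Of 8 Slc6a and Slc16a carriers of the plasma membrane 3 were higher and 3 lower, with a median of -0.05. Slc6a9, a glycine carrier that red cell precursors also use, read 1.65 and 1.57 in line 7 and line 13, against 4.22 in BMMNCs (-2.62 ± 0.10 SE, limma adjusted p = 0.00124). Slc6a6, the taurine carrier, gave -0.2 ± 0.097 SE (limma adjusted p = 0.164). Against ES cells limma called 0 of these 18 carriers. At an unadjusted p under 0.05 stood 1 of the 10 and 3 of the 8, beside 31.3% of all genes.

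**Figure D4:**
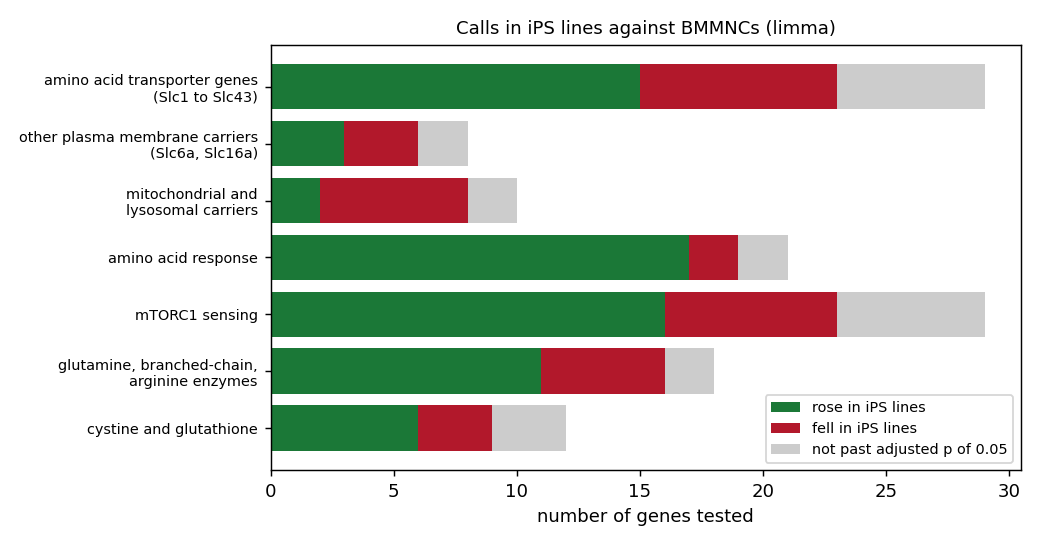
Number of genes tested (x axis) in each list that rose, fell or did not pass limma's adjusted p of 0.05 in iPS lines against BMMNCs, 1 bar per list. The amino acid response has 17 rises among 21 genes and the mitochondrial and lysosomal carriers 6 falls among 10.

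Promoter windows were found for 30 of the 41 genes, 41 windows in all since a gene can have several starts. Motifs were searched on both strands. The C/EBP-ATF composite element (TGATGNAAN) lay in 4 windows of 3 genes, Slc1a4, Slc7a7 and Slc7a11, which is 9.76% of the windows of these genes, against 3.95% of all 32851 windows. The 2 Slc7a7 windows overlap and share 1 of these matches. The E-box (CACGTG) lay in 6 windows, 14.6% against 7.15% of all, those of Slc1a6, Slc1a7, Slc7a14, Slc36a1, Slc38a5 and Slc38a7. The antioxidant element (TGACNNNGC) lay in 5 windows, 12.2% against 12.4%, and the cAMP response element (TGACGTCA) in 0 against 1.79%. E-box genes included Slc1a6, higher in iPS lines than in BMMNCs, Slc38a5, lower, and Slc1a7, Slc7a14 and Slc36a1, above background on no array. A match of letters is a description of the window and not a binding site. Median GC content was 56.0% in the windows of these genes and 52.7% in all.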

How the data were processed

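Cy3-labelled RNA was hybridised to single-colour Agilent arrays, read with Feature Extraction 9.5 per the submitters' processing notes (9.5.1.1 per the file headers). Each scanner file holds intensities, with the processed signal already corrected for background and spatial trend, per the file headers. A second intensity table deposited by the authors equalled that signal times 1 factor per array (1.5768 for line 7, 1.5443 for line 13, 1.6271 for ES cells, 2.6606 for BMMNCs) on a linear scale and not centred; column medians were 135.9, 133.6, 139.9 and 106.2 in that order. The origin of these factors is unknown.

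Here control spots and 14 probes with a non-uniform spot were dropped and replicate spots averaged. The authors' deposited signal was then taken as log2 relative to the array's 75th percentile (1119.6 in line 7, 1123.2 in line 13, 1047.8 in ES cells and 602.0 in BMMNCs). No spot was saturated. A probe was above background when its spots were so marked at a share of 0.5 or more. Unversioned accessions were matched to RefSeq genes of GRCm38.p6, which named 22941 of 41160 probes. The array was designed on an older build, and no probe coordinates are given. A gene took its brightest probe. The 21216 genes above background on at least 1 array were fitted with limma 3.58.1 (R 4.3.3), using means for iPS, ES and BMMNC arrays, a prior SD of 0.093 and 1.8 prior degrees of freedom. The step was tested on simulated data. P-values rest on the spread between the 2 lines, drawn towards the prior that is pooled over all genes. For Slc38a2 the SD of the lines was 0.001 and the SE 0.092. Nothing says how the cultures of the lines were kept apart.

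The carriers and lists were chosen with earlier results of these data known. Any carrier could be named. Names from each other list were drawn from its first 2 genes and its 2 largest rises and falls above background on all compared arrays, with exceptions said beside the gene. Alternatives were normexp (offset 50, on the median spot signal, since the files hold no mean signal), quantile and median scaling, the authors' table, other filters, mean of probes, an intensity trend, ES with iPS as 1 group, and leaving out a line.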

Additional observations from a re-analysis of the deposited data

Results flagged for a closer look

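Slc7a5, the leucine carrier, was singled out because ES cells lay to one side of BMMNCs and both iPS lines to the other. The difference from BMMNCs was -0.02 on the log2 scale for the iPS lines and 0.05 for ES cells. That these 2 differences are unlike was not tested as such; the iPS lines and ES cells differed by -0.07 ± 0.092 SE (limma adjusted p = 0.651).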

How the results depend on the processing

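Against BMMNCs, 23 of 29 genes were called; 15 were called in every setting run, always in 1 direction, and 23 of the 29 kept 1 direction throughout. With the share of all genes called in brackets, counts were 24 with normexp (82.4%), 25 with quantile (77.8%) and 22 with median scaling (76.3%), 26 with the authors' deposited table (75.8%) and with an intensity trend (83.1%), 22 of 41 without a filter (41.6%), 23 with the mean of a gene's probes (74.7%), 19 with ES and iPS as 1 group (61.2%) and 14 of 16 above background on all arrays (84.5%). Reversed signs were Slc7a1 (-0.29), Slc7a2 (-0.19), Slc7a11 (-0.17), Slc36a4 (-0.32) and Slc7a5 (0.02) with normexp, Slc7a5 also with quantile scaling (0.07), the authors' deposited table (0.10) and ES and iPS as 1 group (0.00), and Slc38a1 (-0.01) with the mean of probes. The median of all genes moved to -0.20 with normexp and with median scaling, and to 0.12 with the authors' deposited table. Against ES cells 1 gene was called (4.71% of all genes), as with the mean of probes (3.02% of all genes). With the share of all genes again in brackets, counts were 9 with normexp (26.6%), 3 with quantile (4.5%) and 3 with median scaling (5.43%). They were 10 of 16 above background on all arrays (38.9%) and 11 with an intensity trend (36.2%). limma called 0 with the authors' deposited table and 0 without a filter, where 11 and 9 members had an unadjusted p under 0.05. In both of these settings it called 0 of all genes. Reversed there were Slc1a6 (-0.01) with normexp, Slc7a5 (0.02) and Slc38a4 (0.04) with median scaling, and Slc38a1 (-0.10) and Slc38a4 (0.02) with the mean of probes. No gene was called in opposite directions against ES cells. ES cells and BMMNCs were 4-fold apart in 9 to 14 genes, and in 6 of 16 above background on all arrays; the 2 lines were 2-fold apart in none. Leaving out a line left no residual degrees of freedom, so it gave values and no counts; the lines lay on different sides of ES cells for Slc38a4, at -0.20 (line 7) and 0.10 (line 13). No paired analysis was possible because the groups share fewer than 2 replicate numbers.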
